A study of Mus musculus with 2 samples.

Results

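The data described here are the N6-methyladenosine (m6A) measurements at 10 genes of the actin cytoskeleton and the intermediate filaments in mouse retinal organoids. The genes were chosen by name: Actb, Actg1, Cfl1, Pfn1, Tmsb10, Myl6, Vim, Nes, Marcks and Marcksl1. Of the 10, 9 were among the 8262 named genes listed in at least 1 library, with 48 of the 26441 listed positions in replicate 1 and 61 of the 50099 in replicate 2. A site was a listed position with a coverage of 20 reads or more, and a shared site was one that reached this in both libraries on the same transcript and position. The genes held 31 of the 5221 shared sites, on 13 transcripts of 8 genes. Pfn1 was not listed at any coverage, and Nes reached 20 reads in replicate 2 alone.

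Poly(A) RNA came from wild-type organoids of the Rx-GFP mouse cell line, which carries a green fluorescent protein reporter of Rx (Rax), a transcription factor gene that marks the eye field. All samples were at day 6 of differentiation and all had received AGN at 0.1 µM for those 6 days. The 2 libraries are replicates of 1 group on separate flow cells, and the labels do not say whether they came from separate cultures, so the spread between them may be technical. There is no untreated, mutant or METTL3-deficient group, so no difference between conditions could be measured, and an exact paired permutation test over 2 replicates cannot give less than p = 0.5.

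Among the marker genes of the eye field and retinal progenitors, 4 of 8 (Rax, Lhx2, Six6 and Sfrp2) had a shared site. None of the 4 pluripotency markers was listed. Of 4 neuronal markers, Tubb3 alone had listed positions, none above 17 reads, and of 6 muscle and fibroblast markers, Col1a2 alone did, at 6 reads or fewer and in replicate 2 only. A gene without a listed position can still be expressed, because a transcript is seen here only through positions on the listed motifs with at least 5 reads.

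Actin monomers assemble into filaments that shape the cell cortex and, with non-muscle myosin, drive the apical constriction by which the optic vesicle folds. Intermediate filaments of vimentin and nestin give mechanical strength to neuroepithelial cells and mark them. m6A is placed on mRNA by the METTL3 and METTL14 complex, mostly in the sequence context DRACH, and is bound by reader proteins that affect splicing, translation and decay.

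The tables list positions on 4 motifs of 5 bases, written in DNA letters, and they are named at each site because the fraction modified differed widely between and within them. The most frequent over the whole table is GGACA. The motif GGACT differs from it in the last base, and so does the motif GGACC. The remaining motif, AGACT, differs from the second of these in its first base. Methylation in DRACH falls on the A before the C. The fraction modified is the deposited share of reads scored as modified at a position, between 0 and 1. A read count printed with a fraction, as in a value over a number of reads, is the coverage. Coverage is not the denominator of the fraction, and how many reads were scored is not stated. Which base of the motif the listed position marks is not stated. Positions are counted in nucleotides from the transcript's start.

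The fractions at the 31 sites ran from near 0 to near 1. The median fraction over them was 0.333 in replicate 1 and 0.262 in replicate 2, a mean of 0.297 ± 0.0508 (SD, n = 2), beside 0.368 ± 0.0094 (SD, n = 2) over all 5221 shared sites. The fraction was over 0.9 in both replicates at 3 of the 31 sites, where 9.23% of all shared sites passed this. It was over 0.5 in both at 5 of them (34.6% of all shared sites) and under 0.2 in both at 9 of them (25.3% of all shared sites). The sites are not independent, since several transcripts of a gene carry what appear to be the same positions.

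**Figure D1:**
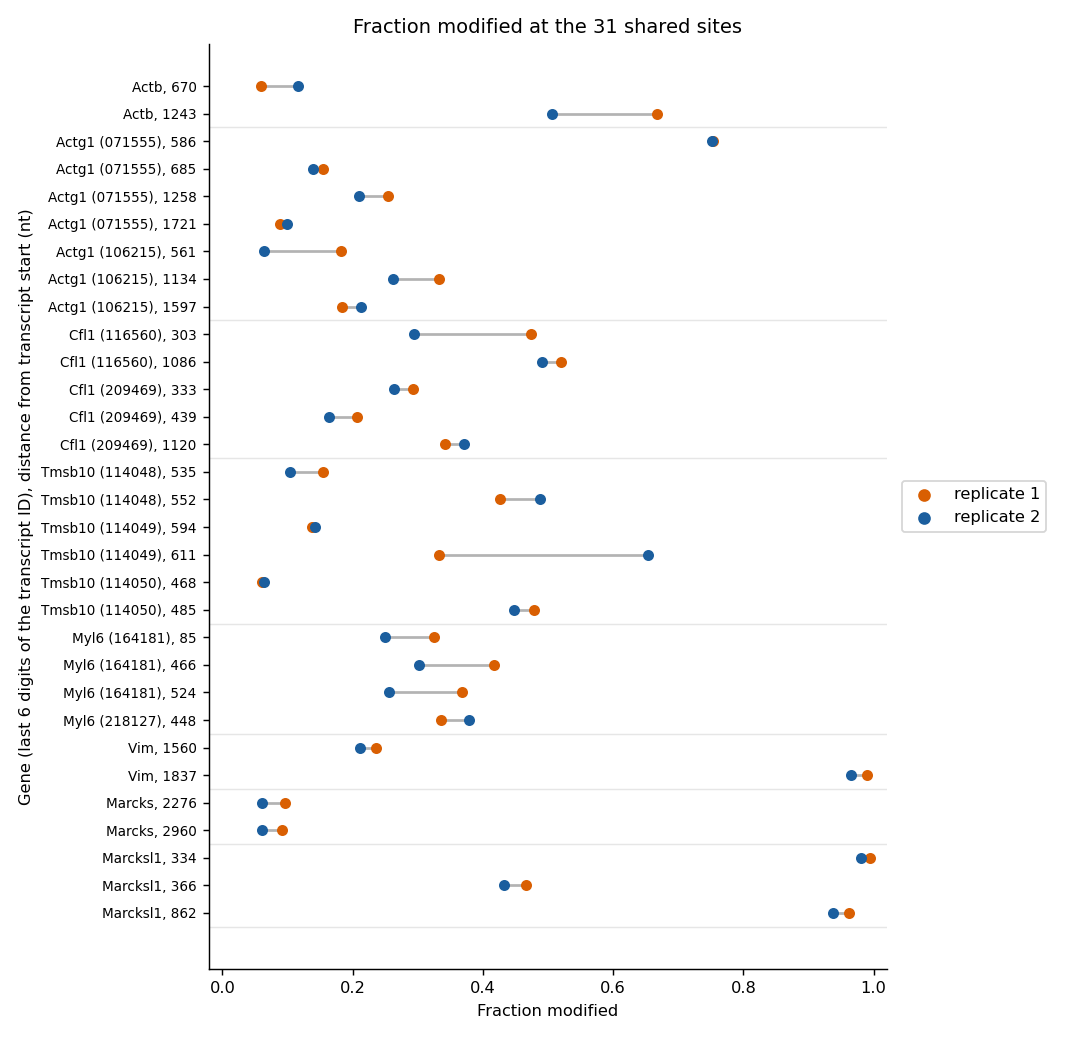
Fraction modified (x axis, 0 to 1) at each of the 31 sites shared by both replicates, 1 row per site, named by gene, transcript where a gene has several, and distance from the transcript start in nucleotides. Orange points are replicate 1, blue points replicate 2, and grey lines join them. Vim at 1837 and Marcksl1 at 334 and 862 are the 3 rows above 0.9, and both Marcks rows lie below 0.1.

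The comparison with the whole table differed by motif, with 3 motifs lower at these genes and 1 higher. Positions of GGACA made up 7 of the 31 sites (22.6%) and 38.3% of all shared sites. Its median fraction was 0.398 ± 0.0268 at these genes and 0.677 ± 0.0147 over all shared sites (each SD, n = 2). The 7 values did not cluster around that median: 3 lay between 0.950 and 0.987 in Marcksl1 and Vim, and the other 4, in Myl6 and Vim, lay between 0.224 and 0.359 (means over replicates). GGACT, also with 7 sites, here in 3 genes, ranged from 0.232 to 0.753. Its median was 0.457 ± 0.0426 beside 0.258 ± 0.0118 over all shared sites (each SD, n = 2). These 7 include Tmsb10 positions 485, 552 and 611, apparently 1 site on 3 transcripts, with means of 0.463, 0.457 and 0.494, near the median. Actg1 positions 1258 and 1134 also appear to be 1 site. GGACC, with 10 sites in 5 genes, ranged from 0.0626 to 0.505, with a median of 0.161 ± 0.0109 beside 0.222 ± 0.0076 (each SD, n = 2). AGACT, with 7 sites in 5 genes, ranged from 0.0756 to 0.449, with a median of 0.160 ± 0.0302 beside 0.258 ± 0.0118 (each SD, n = 2).

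Actb and Actg1 encode the beta and gamma cytoplasmic actins, whose proteins are nearly identical. Actg1 (chromosome 11, 120236516 to 120239368; gene coordinates here are those deposited, of a build the tables do not name) had 4 sites on transcript ENSMUST00000071555.12, with 638 to 834 reads in replicate 1 and 1475 to 1755 in replicate 2. At the GGACT of position 586 the fraction was 0.754 in replicate 1 and 0.753 in replicate 2. At the AGACT of position 685, 99 nt further on, it was 0.155 and 0.139. The second GGACT, at position 1258, gave 0.255 and 0.210, and the GGACC at position 1721 gave 0.0886 and 0.0990. Thus 1 of the 4 positions was high and the others were low in both libraries. The GGACT positions 586 and 1258 share a motif and have similar coverage, and position 1258 minus position 586 was -0.499 in replicate 1 and -0.543 in replicate 2. That gap is far larger than the spread between replicates at either position (SD 0.000919 and 0.0318).

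The Actb gene (chromosome 5, 142888870 to 142892509) had 2 sites on transcript ENSMUST00000100497.10. The AGACT at position 670 had 36 reads and a fraction of 0.0588 in replicate 1, and 168 reads and 0.115 in replicate 2. The GGACT at position 1243 had 0.667 over 48 reads and 0.507 over 251 reads. These positions are 573 nt apart, and so are the AGACT and GGACT positions 685 and 1258 of Actg1. The same pair of motifs at 573 nt was found on 7 transcripts of 6 genes among 20180 pairs of an AGACT and a GGACT position on 1 transcript. Whether position 1243 of Actb and position 1258 of Actg1 are matching places of the paralogs was not checked, since transcript sequences were not used here.

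At the GGACT positions 1243 and 1258, Actb was higher than Actg1 by 0.412 in replicate 1 and by 0.297 in replicate 2, a mean difference of 0.355 ± 0.0812 (SD, n = 2). At the AGACT positions 670 and 685, Actb minus Actg1 was -0.0957 and -0.0237. Against the second Actg1 transcript, at position 561, it was -0.123 and 0.0509, so the order at the AGACT was not the same in every comparison. At the GGACT of that transcript, position 1134, Actb was higher by 0.333 and 0.245. Against the other GGACT of Actg1, at position 586, Actb at 1243 was the lower, at -0.0871 and -0.246 for Actb minus Actg1. No second GGACT of Actb was listed in either library. Reads of near-identical paralogs and pseudogenes can be divided between them by the alignment, so the Actb values, with a coverage of 36 to 251 reads, are uncertain.

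**Figure D2:**
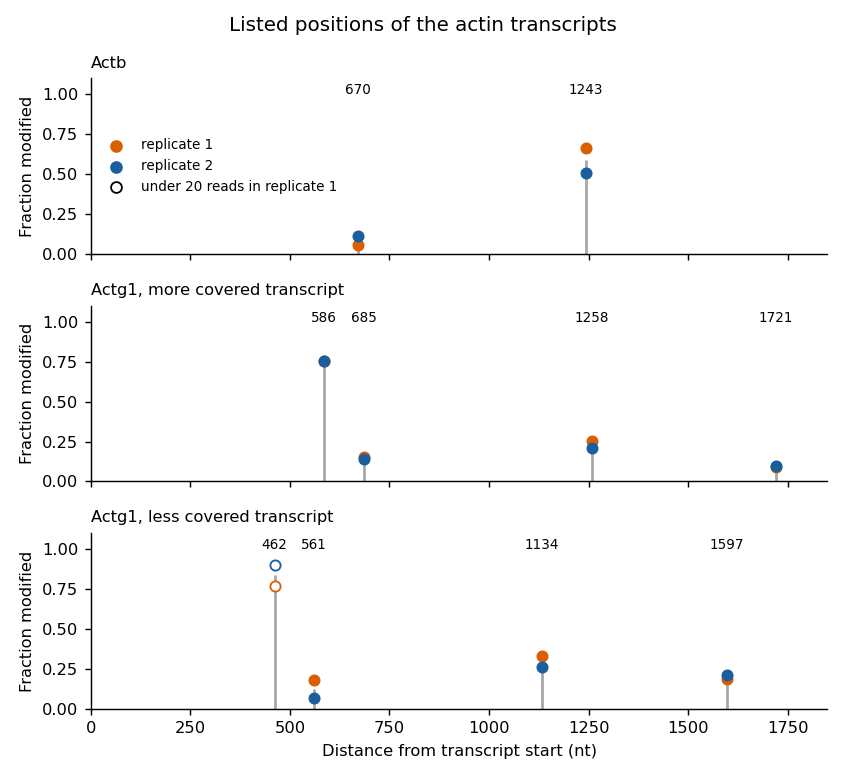
Fraction modified (y axis) against distance from the transcript start in nucleotides (x axis) at every listed position of Actb and of the 2 Actg1 transcripts. Points are replicates 1 (orange) and 2 (blue), grey stems reach their mean, and open points mark the position with 18 reads in replicate 1. The fraction at 1243 in Actb lies above that at 1258 in Actg1, and the first position of both Actg1 transcripts is the highest.

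A second Actg1 transcript, ENSMUST00000106215.10, was covered by 18 to 56 reads in replicate 1 and 40 to 116 in replicate 2. Its 4 listed positions lay 124 nt before those of the first transcript, with the same motifs in the same order, as the same sites would on a transcript with a shorter first part. Here too the first GGACT was the highest of the 4, whereas the AGACT lay below the GGACC in both libraries, the reverse of the first transcript. Position 462 (GGACT) had 0.769 over 18 reads and 0.903 over 40 reads, the only one of the 4 below 20 reads. Positions 561, 1134 and 1597 had 0.182 and 0.0645, 0.333 and 0.262, and 0.184 and 0.212 in replicates 1 and 2.

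Of the proteins that turn actin filaments over, cofilin 1 (Cfl1; chromosome 19, 5540483 to 5545229) severs old filaments. On its deeper transcript, ENSMUST00000209469.1, the AGACT at position 333 had 0.293 over 598 reads and 0.263 over 1225 reads. The GGACC at position 439 had 0.207 over 615 reads and 0.164 over 1272 reads. The other GGACC, at position 1120, had 0.342 over 718 reads and 0.371 over 1436 reads. The latter was higher than position 439 by 0.135 and 0.207, which exceeds the replicate SD of either (0.0301 and 0.0204). All 3 positions thus lay between 0.164 and 0.371 in single libraries. The shallower transcript ENSMUST00000116560.2 had 0.474 and 0.294 at position 303 (33 and 67 reads) and 0.520 and 0.491 at position 1086 (38 and 77 reads). Position 409 of this transcript, a GGACC, was listed in replicate 2 only, with 0.286 over 71 reads, although positions on either side of it had 33 and 38 reads in replicate 1. Position 2301, a GGACA with 13 and 14 reads, was not counted as a site.

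Thymosin beta 10 (Tmsb10; chromosome 6, 72934330 to 72935731) sequesters actin monomers. On transcript ENSMUST00000114050.7, the deepest of the 10 genes in replicate 1, with 1063 reads at each position, 2 sites lay 17 nt apart. The GGACC at position 468 had a fraction of 0.0606 in replicate 1 and 0.0645 in replicate 2. The GGACT at position 485 had 0.478 and 0.447. Both positions had 1645 reads in replicate 2. With equal coverage, the neighbours differed by far more than the replicates did. The pair recurred on 2 further transcripts. On ENSMUST00000114048.1 (positions 535 and 552, 108 and 159 reads) the GGACC had 0.154 and 0.104 and the GGACT 0.427 and 0.487. On ENSMUST00000114049.1 (positions 594 and 611, 35 and 33 reads) the GGACC had 0.138 and 0.143 and the GGACT 0.333 and 0.654.

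That last GGACT was the only one of the 31 sites at which the replicates differed by more than 0.2, which 5.94% of all shared sites did. Profilin 1 (Pfn1), which feeds monomers to growing filament ends, had no listed position in either library. Whether its transcript lacks the 4 motifs, was too shallow or was not reported cannot be told from the tables.

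Myl6 (chromosome 10, 128326729 to 128330014) encodes the essential light chain of non-muscle and smooth muscle myosin. Its positions were divided over 6 transcripts, of which 2 carried shared sites. On ENSMUST00000164181.1 the GGACC at position 85 had 0.324 (103 reads) in replicate 1 and 0.250 (220 reads) in replicate 2. The GGACA positions 466 and 524 had 0.417 and 0.301, and 0.367 and 0.255, over 107 and 229 reads each. All 3 were lower in replicate 2, with differences of -0.0743, -0.115 and -0.112 (replicate 2 minus replicate 1). Positions on 1 transcript share reads, so the 3 differences are not separate observations. On ENSMUST00000218127.1 the GGACA at position 448, which lies 18 nt before position 466, had 0.336 over 171 reads and 0.379 over 255 reads, so the difference between libraries ran the other way. All 4 Myl6 sites stayed between 0.250 and 0.417 in single libraries. The remaining Myl6 transcripts had at most 16 reads at any position.

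Vimentin (Vim; chromosome 2, 13578738 to 13587637), the main intermediate filament protein of neuroepithelial and mesenchymal cells, showed the widest contrast within 1 motif and transcript among the shared sites of these 10 genes. On transcript ENSMUST00000028062.7 the GGACA at position 1560 had 0.235 (407 reads) in replicate 1 and 0.212 (789 reads) in replicate 2. The GGACA at position 1837 had 0.990 over 431 reads and 0.966 over 827 reads. The second position was thus near complete and the first mostly unmodified, in both libraries. The difference was 0.754 in each replicate, against a replicate SD of 0.0165 and 0.0168 at the single positions. These are 277 nt apart and covered by similar numbers of reads. A GGACC at position 382 was listed in replicate 1 alone, with 0.141 over 236 reads. Outside the 10 genes, wider contrasts on GGACA of 1 transcript occurred in the cytoskeleton genes Cnn3 and Myl9. Cnn3 had means of 0.108 at position 228 and 0.956 at 1527, and Myl9 had 0.0478 at 964 and 0.859 at 1101.

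Nestin (Nes; chromosome 3, 87878385 to 87887758), the intermediate filament protein used as a marker of neural progenitors, was listed at 22 positions on 2 transcripts but stayed shallow. Coverage was 5 to 14 reads in replicate 1 and 6 to 32 in replicate 2. Only 7 positions were listed in both libraries, 5 in replicate 1 alone and 10 in replicate 2 alone, and none reached 20 reads in replicate 1. All listed positions lay far along the transcripts, from 4035 to 5730 on ENSMUST00000090973.11 and from 3941 to 5562 on ENSMUST00000160694.1, and coverage increased toward the later ones. The deepest, the GGACT at position 5562 of the second transcript, had 0.889 over 14 reads and 0.600 over 32 reads. The GGACT at position 5730 of the first, 168 nt on from it in numbering, had 0.714 over 10 reads and 0.786 over 22 reads. An offset of 168 nt matched 6 pairs of positions of the same motif, as the same sites on both transcripts would. At this depth the replicates differed by up to 0.363 at a position, so single Nes values are imprecise.

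Marcks and Marcksl1 encode related protein kinase C substrates that tie actin to the plasma membrane. The Marcks sites were low, and of the 3 Marcksl1 sites 2 were near 1 and the other intermediate. In Marcksl1 (chromosome 4, 129407374 to 129409778; transcript ENSMUST00000062356.6) the GGACA at position 334 had 0.995 (400 reads) in replicate 1 and 0.980 (863 reads) in replicate 2. The AGACT at position 366, 32 nt further on, had 0.466 over 409 reads and 0.432 over 877 reads. The GGACA at position 862 had 0.963 over 577 reads and 0.937 over 1230 reads. The AGACT thus lay well below both GGACA positions, with a mean of 0.449 ± 0.0235 (SD, n = 2).

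In Marcks (chromosome 10, 37009371 to 37014916; transcript ENSMUST00000092584.5) the GGACC at position 2276 had 0.0957 over 122 reads and 0.0613 over 422 reads. The AGACT at position 2960 had 0.0909 over 25 reads and 0.0602 over 104 reads. Both were below 0.1 in both libraries. A GGACT at position 3715 was listed only in replicate 2, with 0.163 over 127 reads. No GGACA position of Marcks was listed, so the genes cannot be compared on the motif that was high in Marcksl1. On AGACT, the motif that both carried, Marcksl1 was higher in both libraries.

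**Figure D3:**
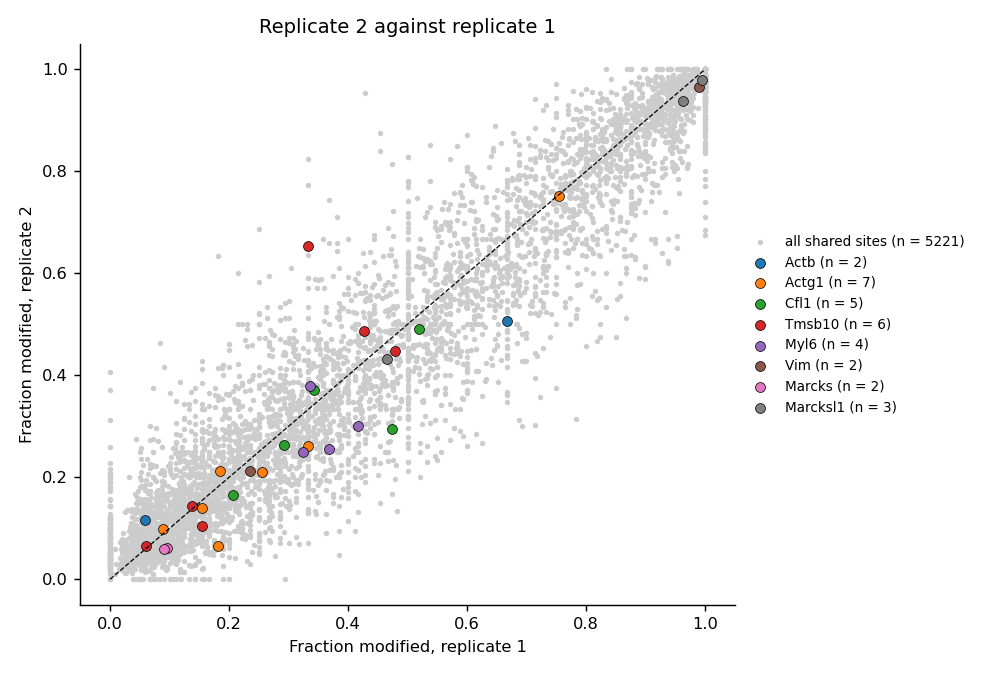
Fraction modified in replicate 2 (y axis) against replicate 1 (x axis) at all 5221 shared sites (grey) and at the 31 sites of the 8 genes (coloured by gene). The dashed line marks equal values. The Tmsb10 point at 0.333 and 0.654 lies farthest from the line among the coloured points, and 22 of the 31 lie below it.

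Replicates differed by a median of 0.0333 at the 31 sites and of 0.0517 at all shared sites. Depth differed too: 21 of the 31 sites had at least 100 reads in both libraries (14.2% of all shared sites did). At those 21 the median difference was 0.0313, beside 0.0245 at the 741 shared sites with that minimum. With a minimum of 50 reads it was 0.0306 at 22 sites of these genes and 0.0344 at 1827 shared sites, so the order depended on the minimum. With the minimum of 100 reads the root mean square differences were 0.0490 and 0.0491. The fraction was lower in replicate 2 at 22 sites and higher at 9. Lower values in replicate 2 thus made up 71.0% of the sites of these genes and 52.3% of all shared sites. Both sets hold transcripts with several sites, and such sites are not independent.

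Coverage of the same site was a median of 2-fold higher in replicate 2 over all shared sites (5th to 95th percentile 1.30 to 3.15). Actg1, Cfl1, Vim and Marcksl1 lay near this, from 1.92 to 2.48. Actb stood apart, at 4.67 and 5.23, above 99.75% and 99.9% of shared sites, as did Marcks, at 3.46 and 4.16. Tmsb10 lay low, at 0.943 to 1.55 over its 3 transcripts. Myl6 was in that range on ENSMUST00000218127.1, at 1.49, and near the median on ENSMUST00000164181.1, at 2.14. Coverage was more than 3-fold higher in replicate 2 at 4 of the 31 sites, all in Actb and Marcks, and at 7.03% of all shared sites. The Actb and Marcks fractions moved by 0.0307 to 0.160 between libraries, and whether that is linked to the change in coverage was not tested. Fewer cells with a transcript and fewer transcripts per cell cannot be told apart in such bulk samples.

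**Figure D4:**
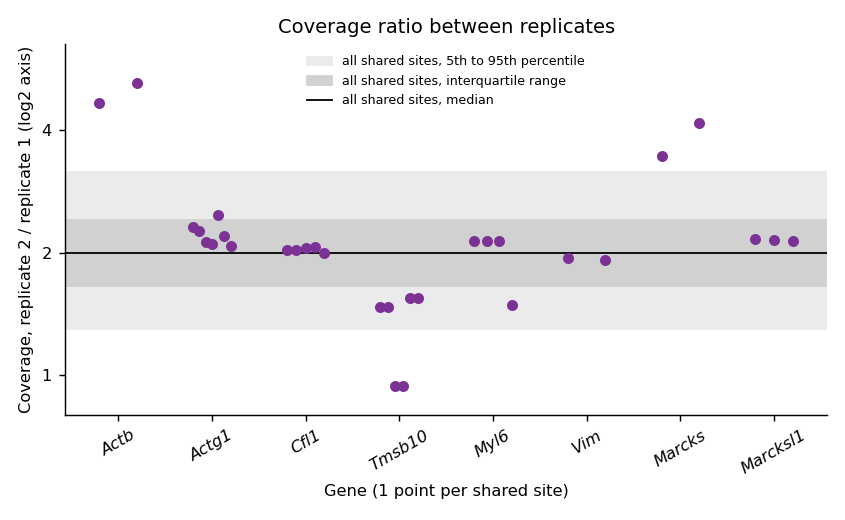
Coverage in replicate 2 divided by coverage in replicate 1 (y axis, log2 axis) at each shared site, by gene. Grey bands give the interquartile range and the 5th to 95th percentile over all 5221 shared sites and the line their median of 2. The Actb and Marcks points lie above the wider band and the lowest Tmsb10 points, at 0.943, below it.

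Coverage also changed along the transcripts. Of 12 transcripts with at least 2 shared sites, 11 had coverage that stayed level or grew toward the 3′ end in both libraries, where direct RNA reads start, as did 72.5% of all 1311 such transcripts. On Actg1 it grew from 638 to 834 reads in replicate 1 between positions 586 and 1721. The other was Marcks, with 122 reads at position 2276 and 25 at position 2960 in replicate 1, and 422 and 104 in replicate 2. The cause of that drop was not tested.

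**Figure D5:**
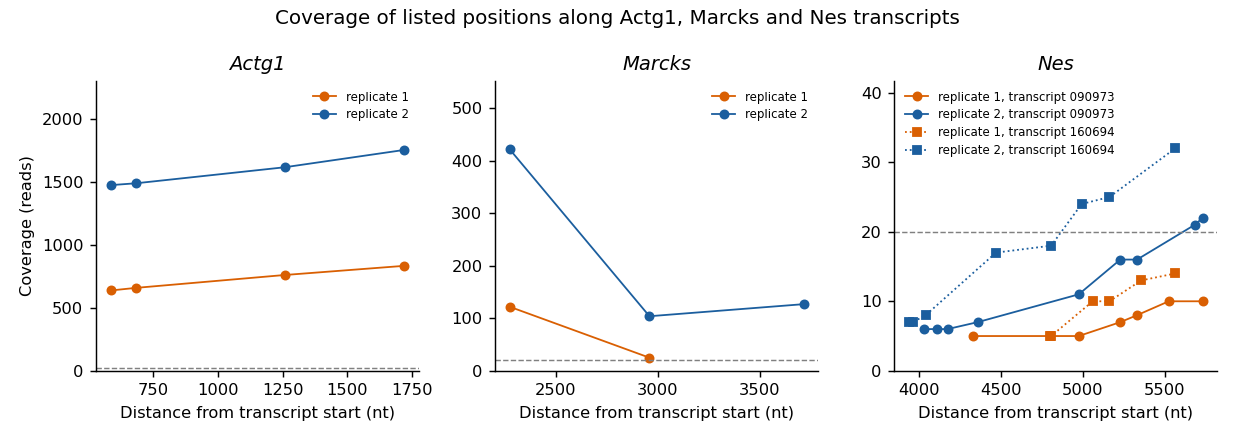
Coverage in reads (y axis) at listed positions against distance from the transcript start in nucleotides (x axis) for 1 transcript each of Actg1 and Marcks and for 2 of Nes, in replicate 1 (orange) and replicate 2 (blue). The dashed line marks the minimum of 20 reads. Coverage grows along Actg1 and Nes and drops in Marcks from 422 to 104 reads between positions 2276 and 2960 in replicate 2, with 127 at 3715, and replicate 1 stays below the minimum throughout Nes.

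Some deep positions were listed in 1 library only. Among these genes, 2 of the 24 positions with 50 or more reads in replicate 1 were not listed in replicate 2, namely Vim at 382 and Myl6 at 67, as were 14.1% of all such positions in the table. The Myl6 position had 0.337 over 148 reads in replicate 1 and lies on transcript ENSMUST00000218127.1, whose position 448 had 255 reads in replicate 2. In the other direction 2 of 31 were not listed in replicate 1, Cfl1 at 409 and Marcks at 3715, beside 15.1% in the table. Whether an unlisted position was unmodified or not reported cannot be told from the tables.

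Positions that may be the same site on several transcripts of a gene were then set side by side, as 10 pairs of the same motif in Actg1, Cfl1, Tmsb10 and Myl6. They were paired by motif and by offsets of 18 to 126 nt, each position once per pair of transcripts, after the values had been seen. Position 448 of Myl6 was paired with 466 and not with 524, which would have added a pair of mixed order. The less covered transcript had the higher fraction in both libraries in 6 pairs, the lower in none, and the order differed between libraries in 4. All 4 GGACC pairs were among the 6, and so were both Cfl1 pairs. The Cfl1 pairs lay at different offsets, 30 nt for positions 333 and 303 and 34 nt for positions 1120 and 1086. A single shift does not join both, so that they are the same sites is not shown. In the whole table, pairs were taken at offsets of up to 130 nt that 2 or more positions of a pair of transcripts shared, and the less covered transcript was higher in both libraries in 25.5% of 102 pairs and lower in both in 21.6%. The same rule kept 7 pairs of these genes, in Actg1 and Tmsb10, with 4 higher and 0 lower. For example, the GGACC at position 1597 of the less covered Actg1 transcript exceeded its partner at 1721 by 0.0956 and 0.114. How reads were assigned to transcripts that share most of their sequence is not given in the sources used here, and its part in these differences was not tested.

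The wider cytoskeleton was surveyed with 90 other genes in 4 lists, of which 32 had a shared site (93 sites). The median fraction over their sites was 0.443 ± 0.0141 (SD, n = 2), beside 0.297 ± 0.0508 for the 10 genes and 0.368 ± 0.0094 for the whole table. These medians were not matched for motif. Over all shared sites the median was 0.677 on GGACA and 0.222 to 0.258 on the other motifs, so a different mix of motifs alone can shift them. Of 54 actin-binding and actomyosin genes, 25 had a shared site, with a median of 0.439 ± 0.0171 (SD, n = 2). Actr3, a subunit of the Arp2/3 complex that nucleates branched filaments, had 7 sites and a mean fraction of 0.355 ± 0.0258 (SD, n = 2). Cnn3, an actin-binding calponin, had 6 sites from 0.0581 to 0.956, and Fscn1, which bundles filaments, had 4 from 0.617 to 0.798. Coro1c, a coronin, had 4 with a mean of 0.513 ± 0.00891 (SD, n = 2). Dbn1, an actin-binding drebrin, also had 4, with a lower mean of 0.142 ± 0.00965 (SD, n = 2).

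Of 13 intermediate filament and lamin genes other than Vim and Nes, the nuclear lamin gene Lmnb1 was the only one with shared sites, at 4, from 0.0540 to 0.892. Krt8 and Krt18, keratins of simple epithelia, were listed with at most 12 reads. The neurofilament genes Nefl and Nefm had at most 7 and 10 reads, and the lamin gene Lmnb2 at most 23. Des, Gfap, Ina, Lmna, Plec, Prph and Synm were not listed. Of 11 genes of the membrane cytoskeleton, Basp1, a membrane-bound protein that like Marcks binds phosphoinositides, was the only one with shared sites. Its 4 sites had a mean of 0.753 ± 0.0623 (SD, n = 2), above the 0.0770 ± 0.0230 of Marcks and near the 0.796 ± 0.0173 of Marcksl1, on different sets of motifs.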

How the data were processed

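Native poly(A) RNA of 2 replicate organoid libraries was sequenced with the RNA002 kit, per the labels' protocols. For each library the authors deposited a table of transcript positions with a fraction modified and a coverage, which is a count of reads. No position with fewer than 5 reads is listed. Of the deposited fractions, 39.6% and 36.2% are whole multiples of 1 over the coverage (tolerance 0.0001), so their denominator is not the coverage and no interval or read-level test was made. Per the submitters' processing notes the build was mm10. The deposited gene starts of the 9 listed genes differ by 4427 to 164130 bases from RefSeq's GRCm38.p6, so the builds were not combined. The base caller, aligner and modification caller are not given in the sources used here. The tables named minus hold none of these genes.

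Positions with at least 20 reads were matched on transcript, position and motif with pandas 2.3.3 (Python 3.11.15), a step tested on simulated data. Fractions are given per replicate or as the mean ± SD (n = 2). No test was run, as the design has no second group and an exact test over 2 replicates cannot reach a threshold of 0.05. The genes and lists were chosen with earlier results of these data known. Named were all 10 genes, every shared site with 50 reads or more in both libraries, and up to 4 genes per list with the most shared sites (ties by mean fraction; Dbn1, tied, was added afterwards). The shallower sites were added afterwards. Of the 4 lists of other cytoskeleton genes, 1 enters the totals and is not reported on its own here.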

Additional observations from a re-analysis of the deposited data

How the results depend on the processing

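The coverage minimum and the treatment of transcripts changed how many sites were counted more than the level at them. Without a coverage minimum the 10 genes held 61 sites in replicate 2 against 39 with 20 reads, and with 1 transcript per gene they held 25. The median absolute difference between replicates, 0.0333, was 0.0450 without a minimum, 0.0306 with 50 reads and 0.0307 with 1 transcript per gene. Of the 90 other cytoskeleton genes, 58 had a shared site without a minimum and 18 with 50 reads, against 32. The counts of sites in replicate 1, of shared sites and of genes with one stayed within 1.5 times under these settings, and the median fraction stayed within 1 SD. Matching within 5 nt changed none of the results it was tried on. The median fraction was 0.262 to 0.333 when either replicate was left out, which cannot move a mean of 2 by more than 1 SD and says nothing about stability. No paired analysis was possible because the samples form 1 group. Depth limits Actb, whose positions had 36 and 48 reads in replicate 1 and were lost with 50 reads, and Nes, which had no shared site at 20.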

Other observations

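On GGACC, where the highest mean was 0.505 among the 10 such sites of 5 genes, 2 other cytoskeleton genes stood near 1, also chosen after their values were seen. Over all motifs, 9.23% of all shared sites were over 0.9 in both replicates. The share on GGACC alone was not counted, so whether such values are unusual for this motif is not shown. The tropomyosin gene Tpm3 had 1.0 over 42 reads in replicate 1 and 0.981 over 109 in replicate 2 at position 909 of ENSMUST00000029549.15. At position 911 of ENSMUST00000119570.7 it had 0.963 over 28 reads and 1.0 over 55. Basp1 had 1.0 over 32 reads and 0.946 over 86 at position 1332.

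The cofilin gene Cfl2, a relative of Cfl1, was listed with 100 reads in replicate 2 and not listed in replicate 1. Myl12a, a myosin regulatory light chain, reached 137 reads in replicate 1 and 13 in replicate 2. Both were chosen after their values were seen.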
